A study of Mus musculus with 16 samples.

Results

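Open chromatin was described at 6 genes for transcription factors that direct myeloid fate: Spi1, Cebpa, Cebpb, Cebpd, Cebpe and Gfi1. A region belonged to a gene when it overlapped the gene body in the RefSeq table of GRCm38.p6, whose main chromosomes have mm10 coordinates, or the 20 kb on either side. Regions came from merging the 16 deposited peak lists and keeping what at least 2 libraries had called. This gave 50 of the 83972 consensus regions of the series, with 12 at Spi1, 7 at Cebpa, 8 at Cebpb, 7 at Cebpd, 9 at Cebpe and 7 at Gfi1, and none lay in the windows of 2 members. The libraries were ATAC-seq, in which the Tn5 transposase inserts adapters into accessible DNA, of bone marrow cells from male C57Bl/6 mice. The marrow had been depleted of Gr1, Ter119, B220, CD4 and CD3 positive cells. The submitters name the remainder haematopoietic stem cells, although a lineage-negative fraction also holds committed progenitors. The 4 groups of 4 libraries were control baseline, control IL-1β, diabetic baseline and diabetic IL-1β. Diabetes had been induced with streptozotocin, which the control mice are not labelled as having received, so diabetes and the drug cannot be told apart. Each of the 4 mouse samples per phenotype had been split, with one part lysed directly as the baseline and one kept in culture for 6 h with 10 ng/mL IL-1β. Stimulation and culture therefore always came together and cannot be told apart.

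PU.1, the ETS-family product of Spi1, and the C/EBP factors bind enhancers of myeloid genes, where a lineage-determining factor opens chromatin that inducible factors then use. C/EBPα, made from Cebpa, is required for commitment to granulocytes and monocytes, while C/EBPβ supports granulocyte production under inflammatory demand and C/EBPδ is an acute-phase factor induced by cytokines such as IL-1β. C/EBPε acts later, in terminal granulocyte differentiation, and GFI1 is a zinc-finger repressor that favours neutrophils and opposes PU.1. IL-1β is known to drive myeloid output from haematopoietic progenitors.

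RefSeq promoter entries (GRCm38.p6) matched 3 members, Cebpa, Cebpb and Gfi1. The 250 bases before the start site are shown for them, because the most accessible region of each of the 3 gene bodies lies over that stretch. They read 5′ to 3′ on the gene's own strand, and capitals mark a match to a searched motif.
Cebpa, chr7:35119043-35119292, plus strand: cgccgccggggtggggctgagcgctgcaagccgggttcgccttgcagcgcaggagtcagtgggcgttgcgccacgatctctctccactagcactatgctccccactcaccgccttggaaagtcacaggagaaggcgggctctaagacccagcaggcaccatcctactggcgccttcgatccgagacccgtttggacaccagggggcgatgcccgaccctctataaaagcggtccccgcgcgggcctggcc
Cebpb, chr2:167688665-167688914, plus strand: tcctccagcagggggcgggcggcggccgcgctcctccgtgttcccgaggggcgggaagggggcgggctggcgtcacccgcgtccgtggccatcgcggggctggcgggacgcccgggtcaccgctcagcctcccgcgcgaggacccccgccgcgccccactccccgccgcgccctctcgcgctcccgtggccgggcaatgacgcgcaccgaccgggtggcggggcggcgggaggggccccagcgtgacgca
Gfi1, chr5:107725806-107726055, minus strand: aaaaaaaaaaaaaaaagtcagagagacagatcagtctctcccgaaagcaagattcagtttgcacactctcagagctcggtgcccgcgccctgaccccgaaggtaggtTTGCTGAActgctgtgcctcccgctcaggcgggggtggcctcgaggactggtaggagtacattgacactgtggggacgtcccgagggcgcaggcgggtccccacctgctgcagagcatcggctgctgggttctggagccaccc

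Over the full 300 bases, from 250 before to 50 after the start, GC content was 67.3% at Cebpa, 80.7% at Cebpb and 58% at Gfi1. The median position of the highest summit was 60 bases before the start of Cebpa, 39 bases after the start of Cebpb and 275 bases after this start of Gfi1. A search of both strands for C/EBP (TTGCNNAA), PU.1 (GAGGAAG), Gfi1 (AATCACNGC), AP-1 (TGANTCA), NF-kB, STAT (TTCNNNGAA) and Runx (TGTGGTT) letters gave 1 match in these 3 windows. It was the C/EBP match TTGCTGAA of the Gfi1 promoter, from -143 to -136 relative to the start, and it overlapped no other match. Of 32851 RefSeq promoters of this length, 10.8% hold the C/EBP letters, 13.6% those of PU.1, 0.919% those of Gfi1, 7.81% those of AP-1, 1.47% those of NF-kB, 8.30% those of STAT and 5.27% those of Runx. Gfi1 has a second, inner start in the table (window chr5:107724294-107724593), whose region was called in 8 libraries.

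Accessibility is given below as scaled summit reads: the reads at the highest summit of a region, recovered from the deposited fold and −log10 p, after scaling all libraries to the same median over the 24955 regions called in all 16 libraries. It is a height at a point, so regions of different length can be set side by side. The lists held 37543 to 72525 peaks and the library background 0.856 to 1.71 reads, which stands in for a depth that the lists do not give. Baseline libraries called 57464 ± 8188 consensus regions and IL-1β libraries 49629 ± 8968 (SD, n = 8 each). Of the lists of lineage markers, every one of 9 mature neutrophil, 7 granulocyte-monocyte progenitor and 9 stem cell genes had a consensus region within 1 kb, whereas the lymphocyte, mast cell and stromal genes Cd3e, Cd8a, Ncr1, Fcer1a, Ms4a2 and Cxcl12 had none. In the diabetic baseline library of replicate 4 the summed scaled reads of 33 regions at neutrophil markers were 1013, against 1345 to 1654 in the other 7 baseline libraries. In bulk chromatin, fewer cells of a type and less open chromatin per cell cannot be told apart.

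Each of the 6 genes had a region over its body that every library called. It was the highest of its window at Spi1, Cebpa, Cebpb and Cebpd, but not at Cebpe and Gfi1. Of the 50 regions, 15 were called in all 16 libraries (30%, against 29.7% of all consensus regions), 17 in 12 to 15 and 18 in 2 to 11. The 15 shared regions had a median width of 1000 bp (692 bp over all shared regions) and a median level of 53.3 scaled reads (38.7 over all). Regions are numbered below by position within each gene's window. Of the highest region over each gene body, Cebpd region 3 (chr16:15886632-15888211) had the highest level, with 109 ± 9.45 scaled reads over the 16 libraries (SD). Spi1 region 4 (chr2:91082780-91083938) followed with 101 ± 15.7 and Cebpb region 5 (chr2:167688596-167690231) with 90.1 ± 8.79. Single libraries of these regions overlapped, at 97.5 to 129 for Cebpd, 68.3 to 133 for Spi1 and 74.1 to 108 for Cebpb. Cebpa region 3 (chr7:35118850-35119876) had 72.1 ± 6.86, Cebpe region 6 (chr14:54711889-54713193) 43.5 ± 8.30 and Gfi1 region 7 (chr5:107725308-107726385) 25.9 ± 5.04. The lowest Cebpa library (59.6) lay above the highest Cebpe library (56.1), while single libraries of Cebpe (down to 20.4) and Gfi1 (up to 33.2) overlapped. Outside the bodies, Cebpe regions 4 and 5 had higher means than Cebpe region 6, at 72.3 and 53.3 scaled reads. Likewise Gfi1 region 1, with 42.9, was higher than Gfi1 region 7. The table used gives no exons and no strand for Spi1, Cebpd and Cebpe, so positions within their bodies are given only as inside or outside.

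**Figure D1:**
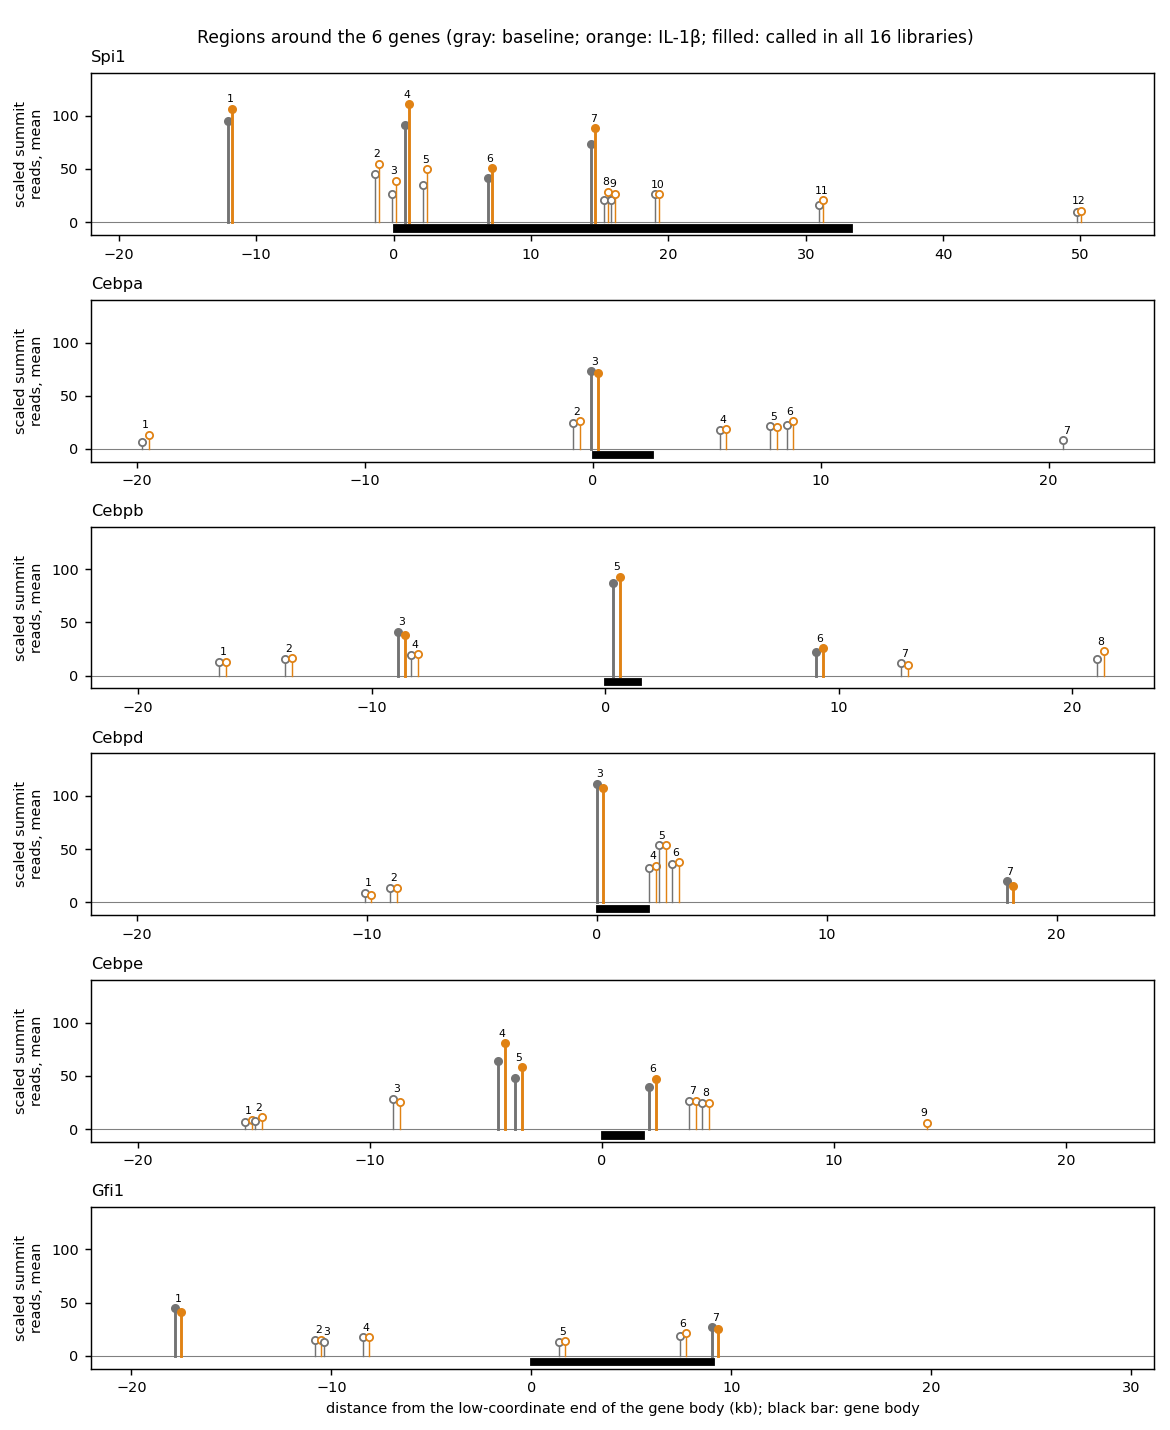
Mean scaled summit reads of each numbered region (vertical axis, over the libraries that called it) against distance in kb from the low-coordinate end of the gene body (black bar), gray for baseline and orange for IL-1β, filled where all 16 libraries called the region. Cebpa, Cebpb and Cebpd each show 1 tall region at the gene body. Every library called 4 regions at Spi1, 3 each at Cebpb and Cebpe, 2 each at Cebpd and Gfi1 and 1 at Cebpa.

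The comparison of IL-1β with baseline asks how stimulation with culture changed chromatin at these genes. Spi1 and Cebpe carried the 2 regions that rose, and no region fell: 2 of the 15 regions called in all 16 libraries passed at a Benjamini-Hochberg adjusted p of 0.05 in limma (over all 24955 shared regions 6.42% rose and 3.4% fell). With the mouse as a block, which pairs both portions of a sample, 4 of 15 rose and 0 fell, and over all regions 9.61% rose and 5.33% fell. All 7 shared Spi1 and Cebpe regions had positive estimates, from 0.18 to 0.35 on the log2 scale, while the shared regions of Cebpa, Cebpd and Gfi1 had negative ones. The sign of Spi1 region 1 flipped when libraries were scaled by background (-0.09), and the deposited fold turned Spi1 regions 4, 6 and 7 negative and Cebpa region 3 and Cebpd region 3 positive. The median over the 15 regions was 0.18, against 0.03 over all shared regions. By phenotype, 0 of 15 passed in control mice (2 at an unadjusted p under 0.05, against 15.3% of all regions, of which 1.78% rose and 0.97% fell after adjustment). In diabetic mice 0 of 15 passed as well (7 unadjusted, against 13.9% of all, of which 2.19% rose and 0.641% fell after adjustment).

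**Figure D2:**
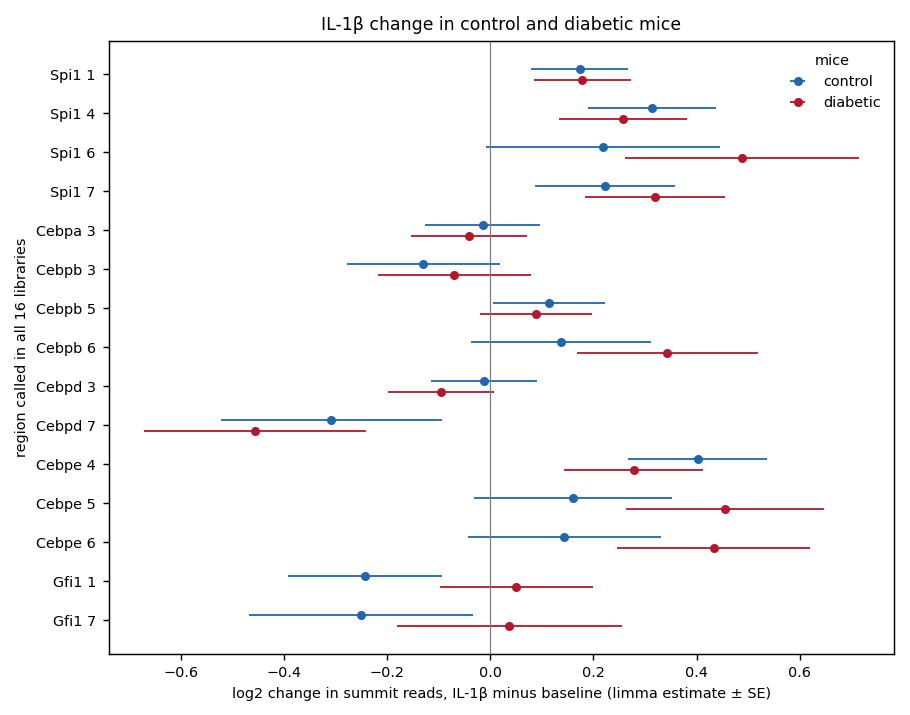
Log2 change in scaled summit reads from baseline to IL-1β (horizontal axis, limma estimate ± SE) at the 15 regions called in all 16 libraries, blue for control and red for diabetic mice. Estimates at Spi1 and Cebpe lie above 0 in both phenotypes, and those of Cebpd region 7 lie below 0 in both.

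Spi1 region 4 lies inside the Spi1 body, near its low-coordinate end. Control baseline libraries had 97.4, 91.0, 86.0 and 96.2 scaled reads and control IL-1β libraries 109, 133, 112 and 108. Diabetic baseline libraries had 109, 94.4, 87.3 and 68.3 and diabetic IL-1β libraries 112, 108, 119 and 86.1. All 4 stimulated control libraries lay above all 4 unstimulated ones, the diabetic groups overlapped, and the stimulated portion was the higher one in 8 of 8 mice. Over both phenotypes the level went from 91.2 ± 11.6 to 111 ± 12.9 scaled reads (SD, n = 8), or 0.29 in log2 (limma, SE 0.09, adjusted p = 0.0394). That call was lost in 10 of the 16 fits that left out 1 library, with adjusted p up to 0.0956: without any of the 4 control baseline libraries, control IL-1β replicate 2 or 3, diabetic baseline replicate 3, or diabetic IL-1β replicate 1, 2 or 3. Without the low diabetic baseline replicate 4 it held (0.22, limma adjusted p = 0.0314).

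The other shared regions of the Spi1 window leaned the same way without passing. Region 1 (chr2:91070022-91070875) lies inside the neighbouring Slc39a13, a zinc transporter gene, 11499 bp from the Spi1 body, and had 94.7 ± 7.15 scaled reads at baseline and 107 ± 6.27 after IL-1β (log2 change 0.18, SE 0.07, limma adjusted p = 0.101). Region 7 (chr2:91096416-91097415), in the Spi1 body, had 73.8 ± 12.6 and 88.2 ± 8.93 (0.27, SE 0.10, limma adjusted p = 0.0761). With the mouse as a block both of these regions passed, at limma adjusted p of 0.0438 and 0.0346. Region 6 (chr2:91089073-91089735), also in the body, had the largest estimate of the 15. Its control baseline libraries had 53.4, 43.4, 42.0 and 44.2 scaled reads and its control IL-1β libraries 55.6, 47.4, 64.2 and 46.5, whereas diabetic baseline had 44.3, 49.5, 40.1 and 15.99 and diabetic IL-1β 48.8, 51.4, 50.3 and 43.1. The library with 15.99 stood far below all others, and the stimulated portion was higher in 8 of 8 mice (log2 change 0.35, SE 0.16, limma adjusted p = 0.185). Without that library the change was 0.17 (limma adjusted p = 0.196).

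At Cebpa, the factor of granulocyte-monocyte commitment, the promoter region kept nearly the same height. Region 3 had 73.0, 66.8, 71.7 and 71.6 scaled reads in control baseline and 71.1, 59.6, 79.7 and 71.3 in control IL-1β libraries. In diabetic mice it had 84.5, 71.0, 62.5 and 81.4 at baseline and 77.4, 66.4, 67.5 and 78.5 after IL-1β. All 4 groups overlapped, and the log2 change was -0.03 (SE 0.08, limma adjusted p = 0.879). The other 6 Cebpa regions were called in 4 to 15 libraries, with mean levels of 8.36 to 24.9 scaled reads.

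Cebpb, the C/EBP gene of inflammatory granulocyte production, had 3 shared regions and none passed. Promoter region 5 had 87.1, 85.2, 83.9 and 94.2 scaled reads in control baseline, 92.4, 97.5, 95.2 and 94.0 in control IL-1β, 108, 86.0, 78.5 and 74.1 in diabetic baseline and 95.5, 78.5, 99.4 and 92.4 in diabetic IL-1β libraries. Groups overlapped in both phenotypes (log2 change 0.10, SE 0.08, limma adjusted p = 0.464). Region 6 (chr2:167697904-167698294), 7472 bp outside the body, was low, and its stimulated portion was the higher one in 8 of 8 mice. In control mice its libraries had 24.3, 20.05, 28.4 and 23.6 scaled reads at baseline and 24.5, 24.4, 30.9 and 25.8 after IL-1β, and in diabetic mice 21.1, 20.6, 21.6 and 17.4 against 25.5, 23.4, 24.5 and 29.1. Only the diabetic groups were separate there (log2 change over both phenotypes 0.24, SE 0.12, limma adjusted p = 0.254). Region 3 (chr2:167679905-167680491) had 41.4 ± 5.63 scaled reads at baseline and 38.6 ± 5.26 after IL-1β.

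Cebpd, the acute-phase member, carried the most accessible of the 50 regions without an IL-1β change past the threshold. Region 3, across the low-coordinate end of the body, had 104, 108, 98.8 and 129 scaled reads in control baseline, 101, 112, 113 and 106 in control IL-1β, 121, 107, 101 and 124 in diabetic baseline and 111, 98.1, 117 and 97.5 in diabetic IL-1β libraries. The 4 groups overlapped (log2 change -0.05, SE 0.07, limma adjusted p = 0.718), and its level stood at the 93.7th percentile of all shared regions. Region 7 (chr16:15905052-15905467), inside the neighbouring Spidr and 15507 bp from Cebpd, had fewer reads in the stimulated portion of 8 of 8 mice. Its control libraries had 21.98, 22.6, 23.7 and 21.6 scaled reads at baseline and 18.0, 20.3, 17.8 and 16.5 after IL-1β. Its diabetic libraries had 16.1, 20.6, 20.03 and 11.6 at baseline and 14.9, 14.95, 8.59 and 11.4 after IL-1β. The control groups were separate and the diabetic groups overlapped, and the difference of -0.38 in log2 did not pass (SE 0.15, limma adjusted p = 0.119). It passed without diabetic baseline replicate 4 (-0.47, limma adjusted p = 0.0285). Region 5, between Cebpd and region 7 and also within Spidr, was called in 15 libraries with a mean of 53.8 scaled reads.

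Cebpe, the factor of late granulocyte differentiation, held the other region that rose. Region 4 (chr14:54705747-54706332) lies 4031 bp outside the gene body. Control baseline libraries had 51.0, 67.7, 65.0 and 66.7 scaled reads and control IL-1β libraries 77.7, 94.8, 69.0 and 89.9. Diabetic baseline libraries had 60.4, 67.3, 56.9 and 74.1, and diabetic IL-1β libraries 70.0, 73.8, 69.9 and 103. Each stimulated control library lay above each unstimulated one, the diabetic groups overlapped only through the baseline library at 74.1, and values were higher in 8 of 8 mice. The level went from 63.6 ± 7.24 to 81.0 ± 13.0 scaled reads (SD, n = 8), or 0.34 in log2 (limma, SE 0.10, adjusted p = 0.0227). It lost the call in 5 of 16 fits without 1 library (control baseline replicate 1, control IL-1β replicate 2 or 4, diabetic baseline replicate 3, diabetic IL-1β replicate 4), where the adjusted p reached 0.0591. With the mouse as a block it also passed in control mice (log2 change 0.40, limma adjusted p = 0.0384) and not in diabetic mice (0.28, limma adjusted p = 0.183). In that fit the difference between these changes did not pass (-0.12, limma adjusted p = 0.984).

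Region 5 of Cebpe (chr14:54706482-54707085), the next peak toward the gene, had 48.4 ± 11.8 scaled reads at baseline and 58.2 ± 6.37 after IL-1β (log2 change 0.31, SE 0.14, limma adjusted p = 0.170). Region 6, over the gene, had 36.1, 48.4, 44.0 and 46.1 scaled reads in control baseline, 49.9, 51.4, 51.2 and 40.3 in control IL-1β, 43.3, 36.5, 42.5 and 20.4 in diabetic baseline and 47.7, 56.1, 40.5 and 41.8 in diabetic IL-1β libraries. Groups overlapped in both phenotypes (0.29, SE 0.13, limma adjusted p = 0.190), and the diabetic baseline library at 20.4 was again replicate 4. Its highest summit moved over 809 bp between libraries, so not all libraries measure the same point of it. Summed scaled reads at 20 shared regions of 7 monocyte and macrophage genes were 769 to 854 in control baseline, 898 to 942 in control IL-1β, 705 to 830 in diabetic baseline and 904 to 921 in diabetic IL-1β libraries. At the 33 regions of 9 neutrophil genes they were 1486 to 1654, 1580 to 1692, 1013 to 1625 and 1278 to 1550 in the same order. No gene of either list lacked a region within 1 kb. Sums at the 10 shared regions of the B cell list were 470 to 554, 528 to 617, 532 to 546 and 546 to 643 in the same order. At the 2 shared regions of the mast cell and basophil list they were 74.6 to 82.7, 44.7 to 57.1, 46.5 to 72.9 and 39.3 to 68.2. The part of any of these cell types in the Spi1 and Cebpe values was not tested.

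Gfi1, the repressor that opposes PU.1, had 2 shared regions and neither passed. Promoter region 7 had 30.6, 20.9, 25.7 and 27.5 scaled reads in control baseline, 14.7, 21.7, 29.7 and 23.8 in control IL-1β, 33.2, 30.8, 26.4 and 18.9 in diabetic baseline and 24.4, 29.9, 30.7 and 25.3 in diabetic IL-1β libraries. The groups overlapped throughout (log2 change -0.11, SE 0.15, limma adjusted p = 0.737), and its highest summit varied over 512 bp. At region 1 (chr5:107698489-107699488), 17167 bp outside the body, control libraries had 47.1, 55.1, 46.0 and 54.0 at baseline and 39.3, 37.9, 46.4 and 47.5 after IL-1β. Diabetic libraries had 40.3, 42.1, 42.5 and 29.1 at baseline and 46.7, 36.5, 42.9 and 32.9 after IL-1β. The control groups overlapped slightly and the diabetic groups widely (log2 change -0.10, SE 0.11, limma adjusted p = 0.640).

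**Figure D3:**
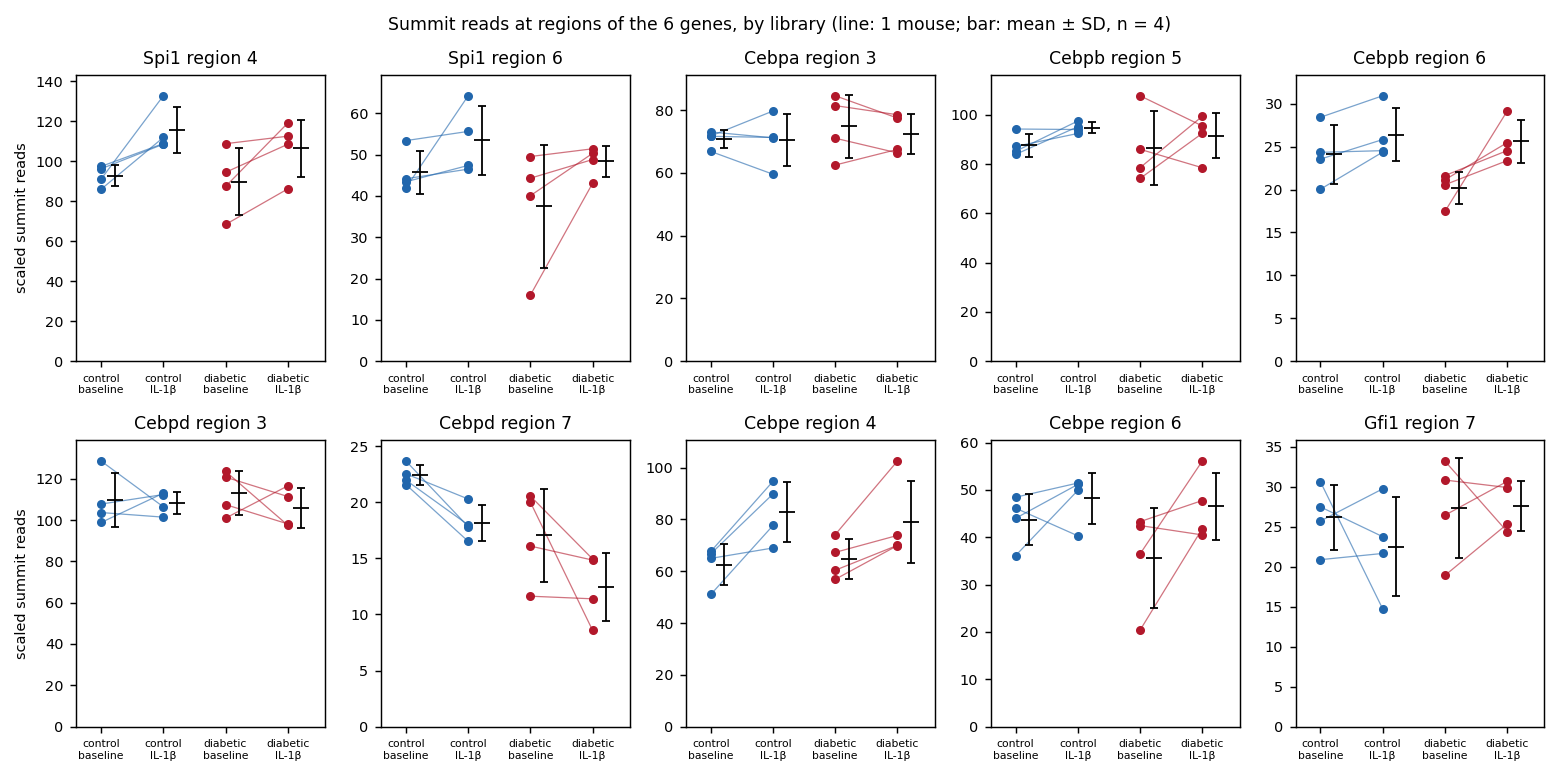
Scaled summit reads (vertical axis) of 10 regions in the 4 groups, 1 point per library, a line joining both portions of a mouse, and the mean ± SD (n = 4) in black. Lines at Spi1 region 4 and Cebpe region 4 go up in all 8 mice, those of Cebpd region 7 go down in all 8, and those of Cebpa region 3 cross.

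Regions that were not called in every library were compared by their calls. Diabetic baseline replicate 4 called 20 of the 50 regions and control IL-1β replicate 2 called 27, while the other 14 libraries called 32 to 45. Of all 83972 consensus regions, diabetic baseline replicate 4 called 48520 and control IL-1β replicate 2 called 34860. The other 14 libraries called 44087 to 67481 of them. Diabetic baseline replicate 4 also had the lowest library background (0.856 reads) and the lowest median of unscaled summit reads (27) of the 16 libraries. The part of depth in its low count at the members was not tested. At Spi1 region 5 (chr2:91084542-91084804), inside the body, 0 of 4 control baseline and 2 of 4 diabetic baseline libraries had a call, against 3 of 4 in each IL-1β group (Fisher's exact test over 8 against 8, p = 0.132). It gained the call in 4 mice and lost it in 0. Cebpa region 7 (chr7:35139951-35140218), 18023 bp from the gene, was called in 2 of 4 libraries of each baseline group and in 0 of 4 of each IL-1β group (Fisher's exact p = 0.0769). Gfi1 region 3 (chr5:107706261-107706609), 10046 bp from the gene, was called in 3 of 4 libraries of each baseline group and 0 of 4 of each IL-1β group (Fisher's exact p = 0.00699, adjusted p = 0.664 over all consensus regions). These 2 lost regions were weak where called, with 8.36 ± 1.28 and 13.3 ± 2.97 scaled reads and deposited folds of 4.48 ± 0.509 (n = 4) and 4.33 ± 0.768 (n = 6). In all, 1 of 50 regions had at least 4 more calling libraries after IL-1β (1.98% of all consensus regions) and 2 of 50 at least 4 fewer (7.78% of all). Fisher's exact test passed after adjustment at 0 of 50 regions (1 unadjusted, against 4.13% of all, and adjusted 0% of all).

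**Figure D4:**
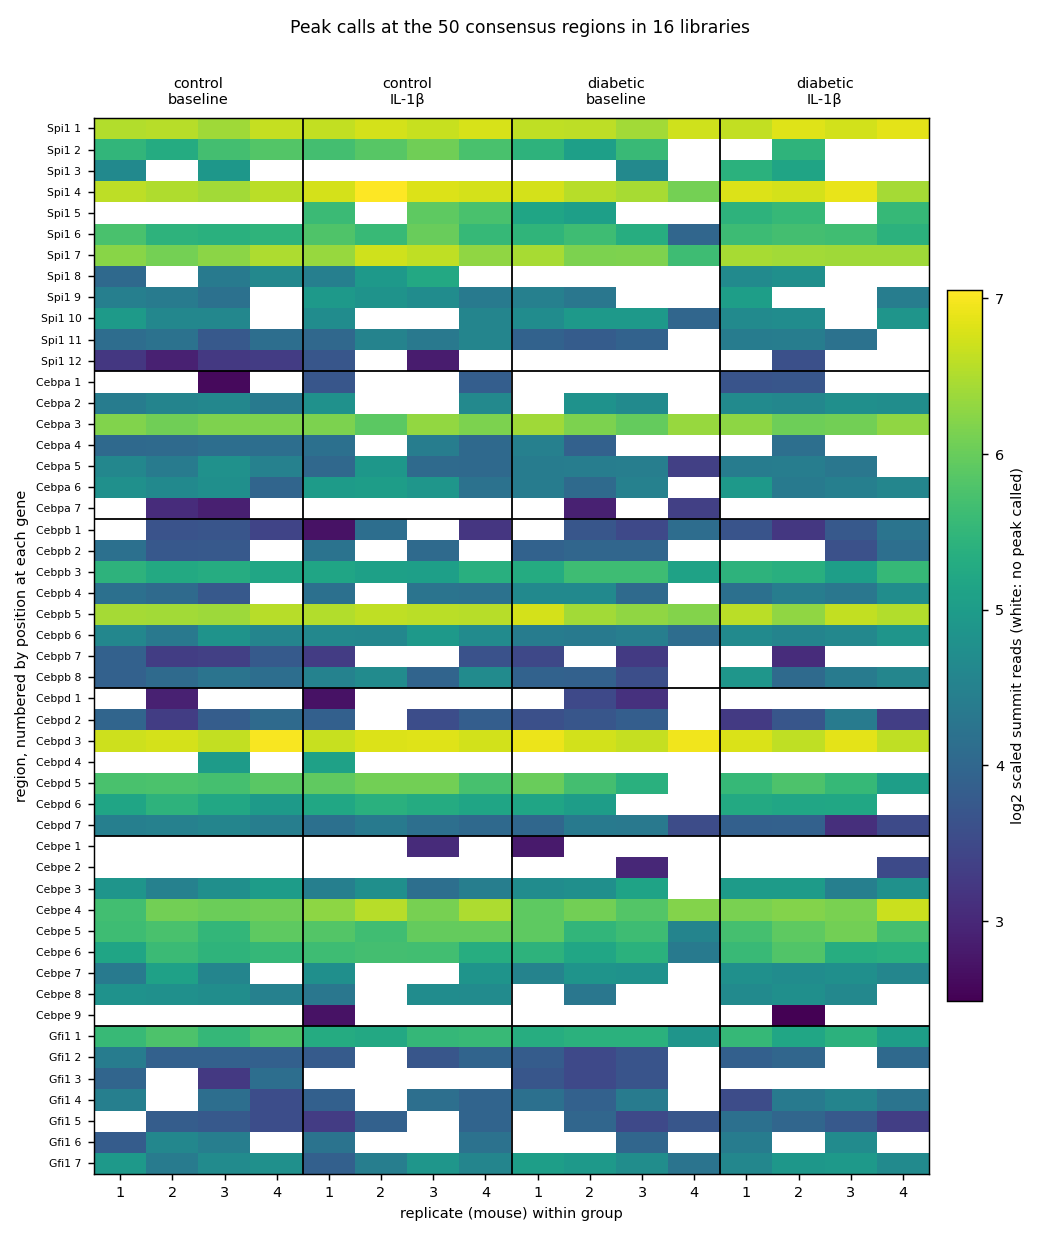
Log2 scaled summit reads of the 50 regions (rows, numbered by position at each gene) in the 16 libraries (columns, by group and replicate), white where no peak was called. Rows filled across all columns are the 15 shared regions. Diabetic baseline replicate 4 has the fewest calls, at 20 of 50 regions (48520 of all 83972 consensus regions).

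Because IL-1β libraries had shorter lists, the number of called regions in each window was also taken per 1000 called regions of its library. Cebpe went from 0.0961 to 0.122 per 1000 (exact permutation test within phenotype, p = 0.00367, adjusted p = 0.117). For Spi1 the means were 0.152 at baseline and 0.180 after IL-1β (exact permutation p = 0.105). Cebpb had 0.120 and 0.135 (exact permutation p = 0.106) and Cebpd 0.0870 and 0.102 (exact permutation p = 0.1098). Cebpa had 0.0868 and 0.0923 (exact permutation p = 0.481) and Gfi1 0.0976 and 0.101 (exact permutation p = 0.713). After adjustment 0 of 6 genes passed and 0% of 14205 genes did, whereas 1 of 6 and 16.9% had an unadjusted p under 0.05. Without that division, the mean number of called regions went from 5.5 to 6 at Cebpe and from 8.75 to 8.875 at Spi1, stayed at 5 at Cebpd, and went from 6.875 to 6.625 at Cebpb, from 5 to 4.625 at Cebpa and from 5.625 to 5 at Gfi1. The per-1000 means were higher after IL-1β at all 6 genes, and the lists they are divided by were shorter. With lists of equal length the Cebpe difference was -0.0054, opposite in sign.

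The IL-1β change was not shown to differ between phenotypes at any member. In limma's test of the difference, 0 of 15 regions passed and 0 had an unadjusted p under 0.05 (0% of all regions passed and 1.67% were under 0.05 unadjusted). Differences between the log2 changes ran from -0.15 to 0.29, diabetic minus control. Diabetic against control mice gave 0 of 15 at baseline and 0 of 15 after IL-1β (0% of all in both). Unadjusted, 1 of 15 was under 0.05 in each, against 11.8% of all regions at baseline and 4.35% after IL-1β. The unadjusted regions were Gfi1 region 1 at baseline, with 50.6 ± 4.66 scaled reads in control and 38.5 ± 6.33 in diabetic mice (SD, n = 4; log2 difference -0.41, SE 0.15, limma adjusted p = 0.422), and Cebpd region 7 after IL-1β, with 18.2 ± 1.57 and 12.4 ± 3.06 (-0.58, SE 0.21, limma adjusted p = 0.970). At both, the highest diabetic library lay below the lowest control library. Both regions were singled out by their unadjusted p, so that separation adds no support. A p above the threshold does not show that the phenotypes were alike.

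The fold that the authors' peak caller wrote at each summit divides by a local background. Fitted as log2 fold, its change had the opposite sign to that of the reads at Spi1 regions 4, 6 and 7. This was also so at Cebpb region 6, Cebpa region 3 and Cebpd region 3. At Spi1 region 1 both changes were positive (0.09 for the fold and 0.18 for the reads). At Spi1 region 4 the deposited fold was 7.81 ± 0.777 in control baseline, 6.34 ± 0.371 in control IL-1β, 8.62 ± 1.06 in diabetic baseline and 6.67 ± 0.692 in diabetic IL-1β libraries (SD, n = 4). The local background there went from 9.34 ± 2.42 to 12.04 ± 2.75 times the library background (SD, n = 8), and its part in the lower fold was not tested. At Cebpe region 4 the baseline fold was 8.95 ± 1.596 and the IL-1β fold 8.69 ± 1.26 (SD, n = 8). Fitted as log2 fold at equal medians, Spi1 region 4 changed sign to -0.19 (limma adjusted p = 0.255), Cebpe region 4 was 0.10 (limma adjusted p = 0.637), and 0 of 15 regions rose (3.92% of all rose and 2.21% fell).

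Scaling by library background instead of the median moved the median of all shared regions from 0.03 to -0.24. Under it Spi1 region 4 was 0.02 and Cebpe region 4 was 0.07, 0 of 15 regions rose, and Cebpd region 7 fell (-0.65, limma adjusted p = 0.0342). Over all shared regions 0.813% rose and 9.39% fell under that scaling.

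**Figure D5:**
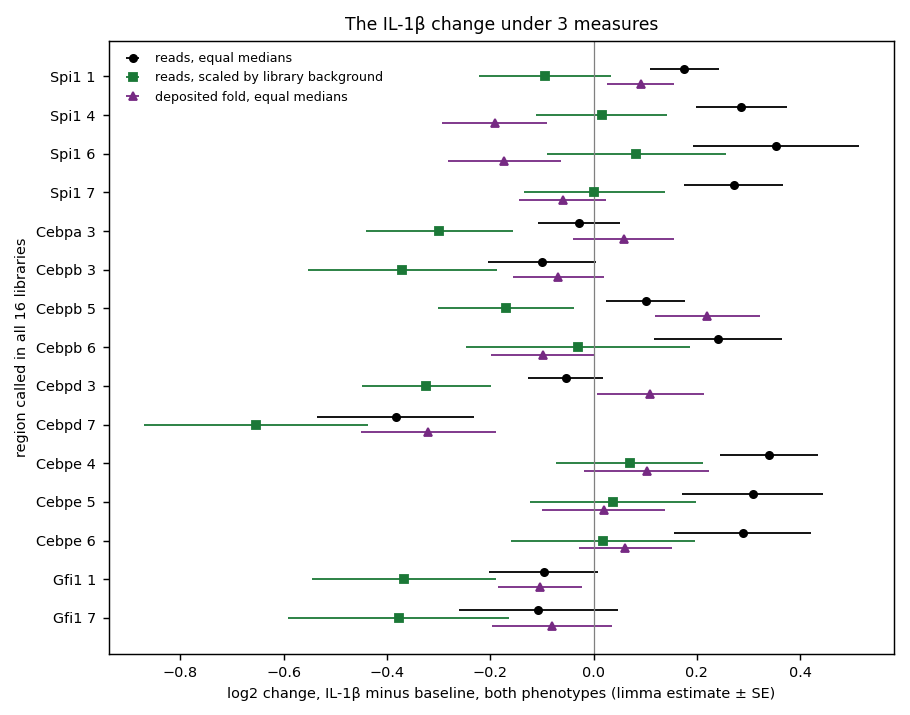
Log2 change from baseline to IL-1β over both phenotypes (horizontal axis, limma estimate ± SE) at the 15 shared regions, from reads at equal medians (black), reads scaled by library background (green) and the deposited fold (purple). Black points of Spi1 and Cebpe lie to the right of 0, green points lie to the left of the black ones throughout, and the purple point of Spi1 region 4 is at -0.19.

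Genes whose strongest region varied most like that of each member were sought over the 16 libraries among 11783 genes, as a description of libraries that share depth and composition. For Spi1 region 4 they were Trim72 (Pearson r = 0.94) and S100a6 (0.94), and for Cebpe region 6 Milr1 (0.94) and Arhgef2 (0.92). For Cebpb they were Ogfod2 (0.87) and Hecw2 (0.85), for Cebpd Ddx5 (0.87) and Ttc5 (0.84), for Gfi1 Ccdc69 (0.85) and Pak1 (0.80), and for Cebpa Ppp1r1c (0.78) and Lifr (0.77).

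Regions were also counted at 25 genes that PU.1 and C/EBP factors are known to act on, such as receptors, adhesion molecules and granule proteins of myeloid cells. Of 84 shared regions at these genes 16 rose (19.05%, against 6.42% of all) and 1 fell, with a median of 0.13. With background scaling 2 rose and 8 fell (0.813% and 9.39% of all), with a median of -0.14, against -0.24 over all regions. Diabetic baseline replicate 4 had a sum of 2935 scaled reads over the 84 regions, against 3829 to 4272 in the other 7 baseline libraries. Without it 17 of the 84 rose and 7 fell, with a median of 0.054. In that fit 2775 of all 24955 shared regions rose and 1473 fell, with a median of 0.039. Itgam, the integrin chain CD11b, went from 31.9 ± 9.29 to 70.4 ± 7.39 scaled reads (SD, n = 8; log2 change 1.23, limma adjusted p = 7.28e-05). Lcn2, the iron-binding lipocalin of neutrophil granules, had 37.0 ± 11.6 and 64.6 ± 8.92 (0.88, limma adjusted p = 0.000498). A region in the Il6ra window, closest to She, had 26.1 ± 7.04 and 44.8 ± 7.56 (0.81, limma adjusted p = 0.00148). Rises also came at genes that included Tlr4, Ncf4, Fcgr3, Csf3r, and the S100a8 and S100a9 pair, and in the Ngp window, where the region is closest to Klhl18. The region that fell was at Ctsg, the serine protease cathepsin G (-0.58, limma adjusted p = 0.00826). Among 96 shared regions at 25 partner and antagonist factors, 2 rose, at Zeb2 (0.39) and in the Ddit3 window (0.28, closest to Mbd6), and 1 fell, at Etv6 (-0.60), with a median of 0.0015. The difference between the lists was not tested.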

How the data were processed

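ATAC-seq peak lists of 16 libraries were used. Per the labels' protocols, nuclei of 50000 cells were tagged with Tn5, fragments over 1200 bp removed and 50-bp single reads sequenced. The submitters' processing notes name MACS2 2.1.1, Bowtie2 2.2.6, edgeR, DiffBind 2.4.8, FastQC 0.11.3 and Trim Galore 1.8 and the build mm10, without their roles. Tn5 shifting and duplicate removal are not given in the sources used here, and both would move summits or reads. In each deposited list the authors' peak caller gives a score, a fold enrichment (a ratio over local background), a −log10 p and a −log10 q per summit, with a lowest −log10 q of 1.3.

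Reads were recovered from fold, (n + 1)/(λ + 1), and the Poisson −log10 p within 0.001, for at least 99.9987% of 1057251 summits. Peaks touching by 1 bp were merged. Log2 reads of the highest summit were fitted in limma 3.58.1 (R 4.3.3) with 4 group means and a variance trend over 24955 regions, p-values adjusted over all of them, which leaves out 35 of the 50 member regions. Calls were compared by Fisher's exact test, and called regions per gene (at least 3 regions) by 4900 exact permutations within phenotype (smallest p 0.000408). In simulated data for the comparison over both phenotypes, 96 of 100 regions changed by log2 1 and 57 of 100 changed by 0.5 were recovered among 24955, with 9 false calls.

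Named regions were the most accessible one at the body, all past the threshold, the largest change in calls (at least 4 libraries) and the largest log2 change per gene; likeness names the 2 closest genes and each list its 3 largest changes. Other regions are given where they were called in all libraries. Members, lists and rules were chosen with earlier results of these data known. The series design says that samples were split, so that libraries of 1 phenotype with the same number come from 1 mouse sample. Their deviations from the group means correlated by 0.42, 0.36, 0.01 and 0.07 in control and 0.40, 0.19, -0.04 and 0.33 in diabetic mice. Alternatives were other scalings, fold, filters, merging, windows, the mouse block, no trend and each library left out. Some items that the lists name are not reported here.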

Additional observations from a re-analysis of the deposited data

Results flagged for a closer look

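Of 40 groups of 4 libraries examined at the 10 named shared regions, 4 held a library that stood far from the other 3 by Dixon's test, and chance gives about 1 in 20. At Spi1 region 4, control IL-1β replicate 2 had 133 scaled reads against 109, 112 and 108. At Cebpe region 4, control baseline replicate 1 had 51 against 67.7, 65.0 and 66.7, and diabetic IL-1β replicate 4 had 103 against 70.0, 73.8 and 69.9. At Cebpe region 6, control IL-1β replicate 4 had 40.3 against 49.9, 51.4 and 51.2. The first 3 of these deviate in the direction of the IL-1β rise, and for them the calls without each library are given beside the results. Cebpe region 6 passed in none of the 16 fits without 1 library, with limma adjusted p from 0.0941 to 0.328.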

How the results depend on the processing

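The rise at Spi1 region 4 and Cebpe region 4 depended on the processing. The number of the 15 member regions that rose was 0 with background scaling, with the deposited fold and with no variance trend (where limma adjusted p was 0.0848 and 0.0535), 1 with cyclic loess and 4 with the block by mouse. In 50 kb windows 4 of 30 regions rose, 2 of them the Cebpb regions beyond 20 kb. The number that fell was 1 with background scaling. In control mice 1 rose under the block, and in diabetic mice 1 of 30 rose with 50 kb windows. Leaving out 1 library gave 0 to 4 rises and 0 to 1 falls over both phenotypes and 0 to 1 rises in control mice. The block changed no other call of the members.

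Background scaling reversed the log2 change of Spi1 region 4 and Cebpe region 4 in diabetic mice (-0.027 and -0.0064) and of Cebpb regions 5 and 6 over both phenotypes (-0.17 and -0.030). The deposited fold reversed Spi1 region 4 (-0.19, and -0.14 in control and -0.24 in diabetic mice), Spi1 region 6 (-0.17), Cebpb region 6 (-0.10), Cebpa region 3 (0.059) and Cebpd region 3 (0.11). Leaving out 1 library moved Cebpa region 3 between -0.070 and 0.011, and Gfi1 regions per 1000 between -0.0021 and 0.0072. Lists of equal length gave -0.0054 for Cebpe regions per 1000, and a −log10 q of at least 5 gave -0.0034 for Gfi1. The causes were not tested.

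Regions of partner genes that rose numbered 0 with background scaling, 8 with the deposited fold, 11 with the block and 8 of 164 when 12 libraries sufficed, and 0 to 9 without 1 library. Those that fell numbered 9 with background scaling, 2 with loess, 2 with the fold, 3 with the block, 3 without the trend, 5 of 164 when 12 libraries sufficed, 0 of 67 at a −log10 q of at least 5, and 0 to 7 without 1 library. At target genes 2 rose with background scaling, 5 with the fold, 27 of 139 when 12 libraries sufficed, 8 of 60 at the stricter q and 10 to 19 without 1 library. Falls there numbered 8 with background scaling, 4 with the fold, 2 with the block, 0 of 60 at the stricter q and 1 to 7 without 1 library. The 9 rises and 7 falls at partners and the 7 falls at targets came without diabetic baseline replicate 4. Over all 24955 shared regions 0.813% rose and 9.39% fell with background scaling, 3.92% and 2.21% with the fold, and 9.61% and 5.33% with the block. With loess 1596 rose and 1030 fell, and without the trend 1506 and 907. When 12 libraries sufficed 2551 of 40976 rose and 1258 fell, and at the stricter q 1155 and 615 of 18742. Without 1 library 1243 to 2775 rose and 639 to 1473 fell. Background, not read number, is all the lists give of depth, so values for single libraries carry no interval.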

Other observations

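Beyond the 20 kb windows, between 20 and 50 kb from the gene bodies, 15 further regions were called in all 16 libraries, and they are described here after their values were seen. At Cebpb 2 of 4 such regions rose after IL-1β (6.42% of all shared regions rose). The first (chr2:167649035-167649882), inside the neighbouring Tmem189 and 39033 bp from Cebpb, went from 64.4 ± 16.7 to 92.1 ± 10.3 scaled reads (SD, n = 8; log2 change 0.57, SE 0.13, limma adjusted p = 0.00687). It passed in diabetic mice (0.73, limma adjusted p = 0.0335), where 2.19% of all shared regions rose. In control mice it did not pass (0.40, limma adjusted p = 0.309). The difference between these changes did not pass either (0.33, SE 0.27, limma adjusted p = 0.9998). The second (chr2:167723737-167724156), 33305 bp from Cebpb on the other side, had 11.97 ± 3.15 and 16.5 ± 2.83 (0.49, SE 0.16, limma adjusted p = 0.0473). None of the 11 such regions at Spi1, Cebpa, Cebpd, Cebpe and Gfi1 passed in limma over both phenotypes.

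At Cebpa, a region 34459 bp beyond the gene (chr7:35156387-35157002) had 32.7 ± 6.82 scaled reads at baseline and 31.3 ± 3.36 after IL-1β (log2 change -0.04). On the opposite side, 32376 bp away, a weak region (chr7:35086558-35086917) was called in 8 of 8 baseline libraries, with 10.3 ± 2.13 scaled reads, and in 0 of 8 IL-1β libraries (Fisher's exact p = 0.000155, adjusted p = 0.204). Of all consensus regions 30 (0.0357%) had that pattern of calls.

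The innermost and outermost limits of the windows were set by distance alone. The last region inside lay 15092 bp (Cebpe) to 19500 bp (Cebpb) from the body, and the first outside 20101 bp (Cebpa) to 23470 bp (Gfi1).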
